A study of Mus musculus with 2 samples.

Results

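Accessible chromatin peaks at the 3' ends of genes were examined in mouse spleen. A peak was included when it lay more than 3 kb from every annotated transcription start site (TSS) and its summit, the point of highest signal, fell in a 3' UTR of a protein-coding transcript or within 1 kb downstream of a protein-coding gene end. On the autosomes, 383 of 24863 peaks met this rule in the library prepared without gradient centrifugation, against 1891 of 87358 in the library of the 50 µL reaction system. Of these gene-end peaks, 227 were in 3' UTRs and 156 downstream without gradient centrifugation, and 1142 and 749 in the 50 µL library. The rule used position alone.

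The material was formalin-fixed paraffin-embedded (FFPE) spleen of Mus musculus, profiled by scFFPE-ATAC, in which barcoded Tn5 transposase tags open DNA in single nuclei. There was 1 library per condition. In the first, nuclei were not purified by density gradient centrifugation, and in the second, tagmentation was run in a 50 µL reaction. The labels give no reaction volume for the first and no gradient step for the second. The authors' paper compares the first with gradient-purified nuclei and the second with a larger reaction volume, not with each other. The libraries can therefore differ in the gradient step as well as in the reaction volume. The part of either step in the differences between them was not tested. The labels give no strain, age or treatment, and a peak list pools all cells of a library.

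The 3' UTR follows the stop codon and carries the sites bound by microRNAs and RNA-binding proteins that set the stability and translation of an mRNA. The gene end is where the transcript is cleaved and polyadenylated and where RNA polymerase II terminates. In DNA, the same stretch can hold enhancers or binding sites of CTCF, the zinc finger protein that stops cohesin loops, and DNA accessibility there is separate from the regulatory role of the UTR in the RNA.

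The sequences below come from gene-end peaks with a summit match within 100 bp, the feature that set these peaks most apart from the surrounding DNA. They are the 6 most significant CTCF-matching peaks of the 50 µL library that were also found without gradient centrifugation, read from GRCm38, the assembly of mm10, 5′ to 3′ on the strand of the match. Capitals mark the CTCF consensus, which is named but not spelled here because it has degenerate letters.
Slc43a2, 3' UTR, chr11:75573544-75573573, minus strand: tgagtctgCCAGCAGGGGGCACtgtgatca
Boc, downstream, chr16:44484254-44484283, plus strand: cctttccaCCAGCAGATGGCGGccttatcc
Polh, downstream, chr17:46170738-46170767, minus strand: cttgtggaCCAGTAGAGGGCAGcgttagca
Snapc1, downstream, chr12:73989793-73989822, minus strand: catggaggCCAGAAGAGGGCACtggctccc
Rnf141, 3' UTR, chr7:110816275-110816304, plus strand: ataatgaaCCACAAGGGGGCAGagcacaca
Olfr1410, 3' UTR, chr1:92611202-92611231, minus strand: atcagtgcCCAGTAGGTGGCAGtgtaggat

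The 4 most significant shared peaks that held another searched sequence are shown in the same way, with the match in capitals. They are RUNX (AACCACA) at Prlr, the prolactin receptor gene, E-box (CAGGTG) at Gm10037, PU.1 (GAGGAAGT) at Rnf2, a Polycomb ubiquitin ligase gene, and GC box (GGGCGG) at Vangl2, a gene of planar cell polarity. A match is a description of the letters and not a measured binding site.
Prlr, 3' UTR, chr15:10347349-10347378, plus strand: tctacttaagaAACCACAttttataatcat
Gm10037, downstream, chr13:67844351-67844380, minus strand: catcattaccagCAGGTGgagacattgtca
Rnf2, downstream, chr1:151457317-151457346, plus strand: aggcttaaagaGAGGAAGTtgtgaccaaaa
Vangl2, downstream, chr1:172000877-172000906, minus strand: agggaggagtccGGGCGGtagggggcagtg

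CTCF sites were also found at gene-end peaks of 3 genes in the gene lists described further on. Ebf1 and Bach2 encode B lineage transcription factors, and Scgb1a1 encodes a secretory protein of lung club cells. These sites were picked after their values were seen.
Ebf1, downstream, chr11:45008294-45008323, minus strand: ggctcatgCCAGCAGAGGGCAGcagtacgc
Bach2, downstream, chr4:32586784-32586813, plus strand: gggaactaCCAGCAGAGGGCAGgcatgctc
Scgb1a1, downstream, chr19:9082626-9082655, minus strand: cgtcgtggCCACCAGGGGGCAGtgtagtcc

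The full lists held 25343 peaks covering 8.81 Mb without gradient centrifugation and 89382 peaks covering 38.0 Mb in the 50 µL library. Peaks within 1 kb of a TSS were found at 2 of 6 B cell, 2 of 6 T cell and 1 of 6 myeloid marker genes without gradient centrifugation, and at 6, 5 and 5 of 6 in the 50 µL library. Among all autosomal protein-coding genes with any base that the position rule allows, 45.7% had such a peak without gradient centrifugation and 58.7% in the 50 µL library. Ckm, a creatine kinase gene of muscle, was the single one of 4 non-spleen genes with such a peak, in both libraries. The lists hold no reads or cells, so the depth is unknown and no significance test was made. For this tissue without gradient centrifugation, the authors' paper reports weaker signal enrichment at TSSs, more duplicate reads and fewer reads in peaks than with it. It also states that cell types could not be clearly separated without the gradient step. Intervals below are exact (Clopper-Pearson, or Poisson for a number of peaks per Mb) 95% intervals that cover counting error only.

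Gene-end peaks made up a small share of all peaks and were denser than other peaks far from promoters. Their share of autosomal peaks was 1.54% (1.39 to 1.70) without gradient centrifugation and 2.16% (2.07 to 2.26) in the 50 µL library. The bases where such a summit could fall, called the territory here, came to 34.7 Mb, which is 1.72% of all known autosomal bases over 3 kb from a TSS. This territory held 11.05 peaks per Mb without gradient centrifugation, where the remaining bases over 3 kb from a TSS held 5.61. The 50 µL library had 54.6 peaks per Mb there, against 26.3 in the remaining bases. The ratio was 1.97 (1.78 to 2.18) without gradient centrifugation and 2.08 (1.98 to 2.17) in the 50 µL library. The territory was counted by base and a peak by its nearest edge, so the distance rule is slightly stricter for peaks.

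Peaks were densest downstream of gene ends and next in 3' UTRs. Without gradient centrifugation the downstream bases held 12.8 peaks per Mb (10.9 to 15.0), where 3' UTRs held 10.1 (8.83 to 11.5), coding exons 7.57, other gene body 6.86 and intergenic DNA 4.62. The same bases held 61.4 peaks per Mb (57.1 to 66.0) in the 50 µL library, where 3' UTRs held 50.8 (47.9 to 53.9), coding exons 24.1, other gene body 36.4 and intergenic DNA 18.6. The intervals of downstream bases and 3' UTRs lay apart in the 50 µL library and overlapped without gradient centrifugation. Coding exons, the other exonic part of genes, lay below 3' UTRs in the 50 µL library (21.8 to 26.5), and their interval without gradient centrifugation (6.32 to 9.01) overlapped that of 3' UTRs.

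Gene ends lie closer to promoters than most far bases, with a median distance to the nearest TSS of 7.60 kb for gene-end peaks against 11.8 kb for other far peaks without gradient centrifugation, and 7.83 kb against 12.3 kb in the 50 µL library. At a like distance, the lead of gene ends over other gene body was small near promoters and larger farther away. At 3 to 5 kb from a TSS without gradient centrifugation, gene-end territory held 12.6 peaks per Mb (10.3 to 15.2), other gene body 9.88 (9.29 to 10.5) and intergenic DNA 9.14 (8.45 to 9.87). The same distance in the 50 µL library held 55.2 (50.3 to 60.4), 47.3 (46.0 to 48.6) and 31.4 (30.1 to 32.7). At 20 to 50 kb the territory held 9.44 (6.96 to 12.5) without gradient centrifugation where other gene body held 5.40 (5.09 to 5.72), and 45.3 (39.6 to 51.5) in the 50 µL library where other gene body held 29.8 (29.1 to 30.6). The intervals of gene-end territory and other gene body overlapped at 3 to 5 kb without gradient centrifugation and lay apart at 20 to 50 kb in both libraries. Coding exons at 20 to 50 kb held 9.33 (6.09 to 13.7) without gradient centrifugation, about as many as gene-end territory. In the 50 µL library they held 21.5 (16.4 to 27.7), below it.

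**Figure D1:**
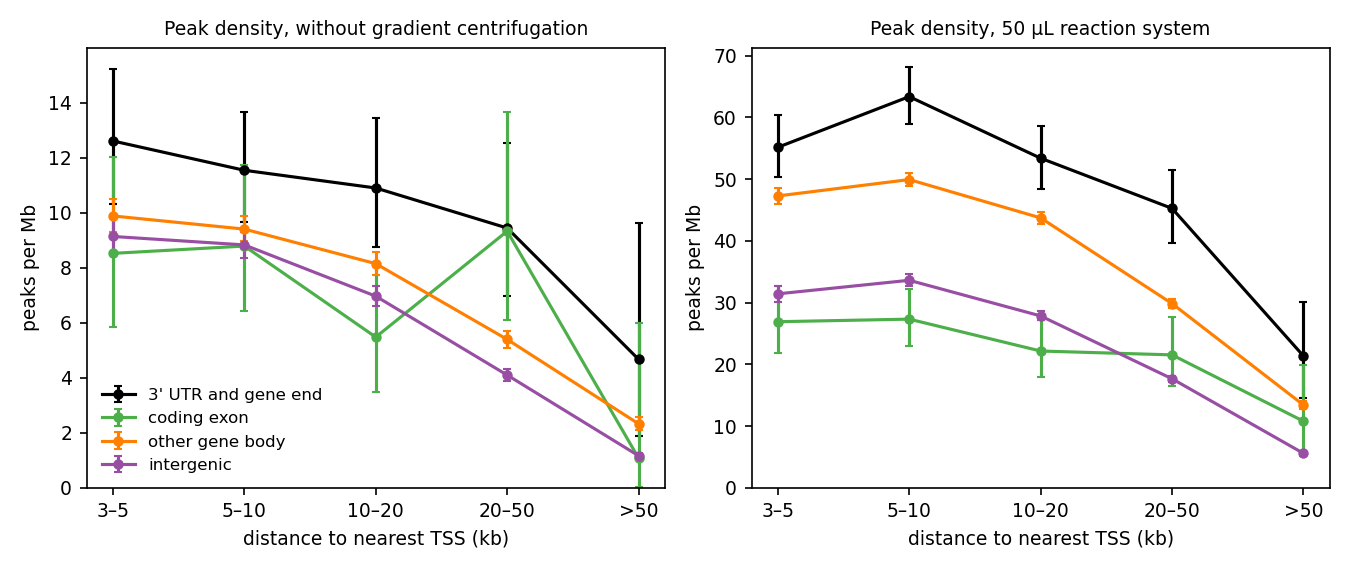
Peaks per Mb (y axis) by distance to the nearest TSS in kb (x axis), without gradient centrifugation on the left and in the 50 µL reaction system on the right. Points are the density of each class and bars are exact Poisson 95% intervals. Gene-end territory (black) stands at 12.6 and 55.2 peaks per Mb at 3 to 5 kb and at 4.67 and 21.4 beyond 50 kb, and other gene body and intergenic DNA are also lowest there.

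Around the gene end itself, summit density rose from the last 250 bp inside genes to the first 250 bp after the end in the 50 µL library. The 3 bins of 250 bp from 1000 to 250 bp before the end held 54.2, 54.7 and 56.9 summits per Mb. The bins from 2500 to 1000 bp before the end held 42.2 to 45.5. Those from 5000 to 2500 bp before it ranged from 39.6 to 56.7, so single bins deeper in genes were about as dense as those from 1000 to 250 bp. The last 250 bp inside genes held 47.6 summits per Mb (40.3 to 55.9) and the first 250 bp after the end 66.8 (58.1 to 76.4). The next 250 bp held 66.6, and density then went to 58.7 at 500 to 750 bp, 59.0 at 750 to 1000 bp and 54.2 at 4750 to 5000 bp. Without gradient centrifugation, the last 250 bp held 8.25 summits per Mb (5.39 to 12.1) and the first 250 bp after the end 12.2 (8.70 to 16.7), so these intervals overlapped, and the density was 18.1 (13.9 to 23.1) at 2000 to 2250 bp. The DNA beyond the window was therefore about as dense as the window, and in the library without gradient centrifugation the highest bin lay outside it. At the stop codon, the 50 µL library held 34.2 summits per Mb in the 250 bp before and 44.0 in the 250 bp after it, with intervals that overlapped (27.7 to 41.7 and 36.6 to 52.3). The library without gradient centrifugation held 10.6 before and 9.69 after.

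**Figure D2:**
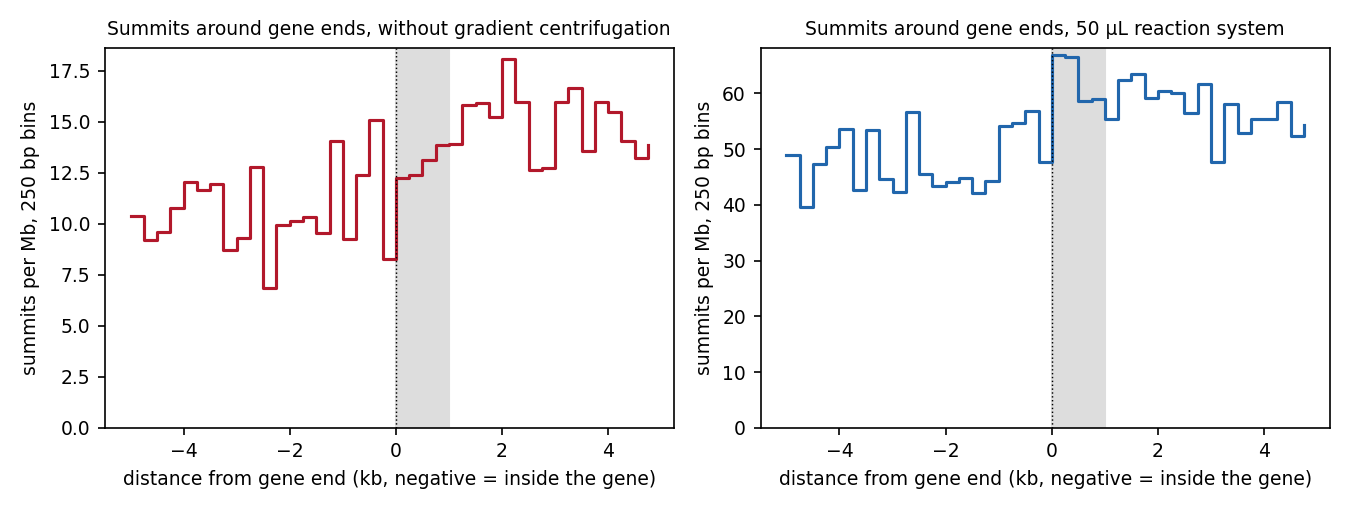
Summits per Mb in bins of 250 bp (y axis) by distance from the gene end in kb (x axis, negative inside the gene), for bases over 3 kb from a TSS, without gradient centrifugation on the left and in the 50 µL reaction system on the right. The grey band is the window of 1 kb downstream that the rule used. In the 50 µL library the bins before and after the gene end are at 47.6 and 66.8 summits per Mb, and density stays high beyond the band in both libraries.

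A gene-end peak looked much like any other far peak in height and width. The fold enrichment, the ratio of signal at the summit to the local background, had a median of 5.52 at gene-end peaks and 5.12 at other far peaks without gradient centrifugation, and 3.17 and 3.23 in the 50 µL library. The median −log10 q was 10.3 and 9.40 without gradient centrifugation, and 11.1 and 11.7 in the 50 µL library. The median width was 271 bp in both sets without gradient centrifugation, and 291 and 304 bp in the 50 µL library. Fold enrichment and −log10 q depend on the number of reads, so they rank peaks within a library.

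The values near the limits of the rule were as follows. Peaks just inside the TSS limit (3000 to 3500 bp) numbered 40 without gradient centrifugation with a median fold enrichment of 5.35, and the 41 just outside it (2500 to 3000 bp) had 5.50. The 121 inside had 3.35 in the 50 µL library, and the 145 outside 3.15. At 900 to 1000 bp after a gene end the 16 peaks without gradient centrifugation had a median of 6.52, and the 15 at 1000 to 1100 bp had 5.75. The 73 and 69 of the 50 µL library had 3.404 and 3.13.

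Base composition separated the peaks from their territory. The median G+C of the 200 bp at the summit was 49.5% at gene-end peaks without gradient centrifugation and 46.0% in the 50 µL library, against 48% and 45% at other far peaks and 43.5% over the 165102 tiles of 200 bp of the territory. Without gradient centrifugation there were 0.214 peaks per 1000 tiles under 35% G+C and 7.14 per 1000 tiles of at least 60%. The 50 µL library had 5.17 and 16.7. In these full lists, which differ in length, the gradient with G+C was steeper without gradient centrifugation, where the bin under 35% rested on 6 peaks. When the 50 µL list was reduced to its 25343 most significant peaks, as many as the other list has, its 388 gene-end peaks gave 0.285 and 5.15 per 1000 tiles and a median G+C of 48.5%. The part of sequencing depth, library chemistry or mappability in this was not tested.

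**Figure D3:**
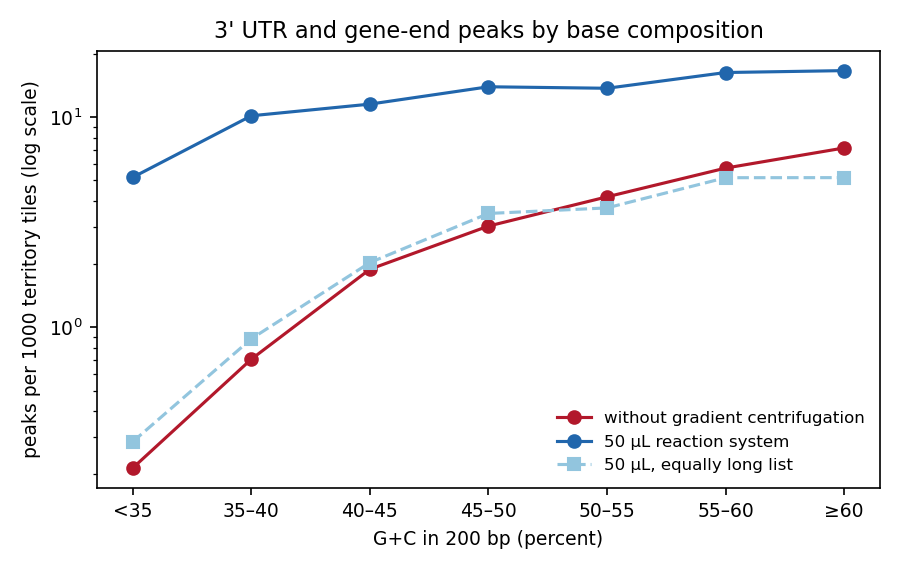
Gene-end peaks per 1000 territory tiles (y axis, log scale) by G+C of the 200 bp (x axis, percent). The library without gradient centrifugation (red) runs between 0.214 and 7.14, the full 50 µL list (dark blue) between 5.17 and 16.7, and the equally long 50 µL list (dashed) between 0.285 and 5.15.

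Few of the peaks looked like hidden CpG island promoters, the GC-rich start sites of many genes. Windows with at least 55% G+C and an observed to expected CpG ratio of at least 0.6 were 11 of the gene-end peaks (2.87%) without gradient centrifugation and 21 (1.11%) in the 50 µL library, against 2.21% and 0.839% of other far peaks and 0.317% of territory tiles. Summits in an annotated long non-coding RNA gene were 19 (4.96%) without gradient centrifugation and 71 (3.75%) in the 50 µL library. Summits in a gene on the opposite strand were 44 (11.5%) and 174 (9.20%). Repeat-masked bases made up 11.6% of the windows at gene-end peaks without gradient centrifugation and 21.1% in the 50 µL library, against 14.3% and 28.9% at other far peaks and 21.9% of the territory.

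Most gene-end peaks found without gradient centrifugation were also found in the 50 µL library. Of 383, 361 (94.3%, 91.4 to 96.4) overlapped a 50 µL peak by at least 1 bp, and the share of all far peaks was 93.1%. In the other direction, 356 of 1891 (18.8%, 17.1 to 20.7) overlapped a peak found without gradient centrifugation, and the share of all far peaks was 19.5%. Gene-end peaks were therefore found again about as often as far peaks in general. Sharing followed peak strength, from 1.82% of gene-end peaks in the lowest decile of −log10 q in the 50 µL library to 72.6% in the highest, where other far peaks ran from 1.78% to 68.4%. In the equally long lists, 60.1% of the gene-end peaks without gradient centrifugation and 58.8% of those of the 50 µL library were shared (54.95 to 65.0 and 53.7 to 63.7). Other far peaks were shared in 57% and 55.7%, inside these intervals.

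Of the 356 shared 50 µL peaks, 284 (79.8%, 75.2 to 83.8) had the higher fold enrichment without gradient centrifugation, as did 79.3% of the other shared far peaks. The median was 5.58 without gradient centrifugation and 4.33 in the 50 µL library. The shared peaks were the strong ones of the 50 µL library: their −log10 q had a median of 27.5, and that of the others 9.45. The counterpart of 344 of them met the same position rule.

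Genes that carried a gene-end peak often had an open promoter as well. Such a peak was carried by 372 genes without gradient centrifugation, which is 2.41% of the 15433 autosomal protein-coding genes with any territory, and by 1649 (10.7%) in the 50 µL library. A peak within 1 kb of one of the gene's own TSSs was present at 229 of the 372 (61.6%, 56.4 to 66.5), against 45.7% of all genes with territory. The 50 µL library had such a peak at 1382 of 1649 (83.8%, 81.9 to 85.6), against 58.7%. In the equally long 50 µL list it was 59.8% (54.7 to 64.8), against 46.6%. Counted by length, the 3' ends of genes with a promoter peak held 13.4 gene-end peaks per Mb without gradient centrifugation, and those of genes with none held 8.09. The values were 71.3 and 22.2 in the 50 µL library. The 2 libraries differed in which end was higher. Without gradient centrifugation the gene-end peak had the higher fold enrichment in 137 of 229 genes (59.8%), and in the 50 µL library in 352 of 1382 (25.5%). Peaks that failed to reach the calling threshold are missing from both ends, and the part of that was not tested.

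Long 3' ends carried peaks more often. Of genes with under 1000 bp of territory, 0.505% carried a peak without gradient centrifugation and 1.51% in the 50 µL library. Of genes with at least 6000 bp, 6.49% and 28.4% did. The density over the same length classes ranged from 8.91 to 12.3 peaks per Mb without gradient centrifugation and from 32.05 to 58.8 in the 50 µL library. The median 3' UTR length was 2269.5 bp for genes with a peak without gradient centrifugation and 2332 bp in the 50 µL library, against 1320 bp for all genes with territory.

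The sequence that marked gene-end peaks most was CTCF. It was present within 100 bp of the summit at 80 of 383 peaks (20.9%, 16.9 to 25.3) without gradient centrifugation, against 12.7% (12.1 to 13.3) of other far peaks. The 50 µL library had it at 88 of 1891 (4.65%, 3.75 to 5.70), against 3.37% (3.22 to 3.53) of other far peaks. The share of territory tiles that held it was 0.187%. Windows 2 kb to each side of the peaks held it in 0 of 766 without gradient centrifugation and in 0.212% in the 50 µL library. For the count of 0, an approximate limit (3 of 766, not an exact interval) allows a share of up to 0.392%. In the equally long 50 µL list the share was 11.1% (8.14 to 14.6) at gene-end peaks and 5.82% (5.39 to 6.28) at other far peaks.

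CTCF gene-end peaks were stronger than the rest and had no common direction. Their median fold enrichment was 6.19 without gradient centrifugation, against 5.32 for gene-end peaks with no match, and 4.34 against 3.15 in the 50 µL library. Of the 88 in the 50 µL library, 50 (56.8%, 45.8 to 67.3) were shared, against 16.97% of those with no match. Without gradient centrifugation 95.0% (87.7 to 98.6) were shared, against 94.1% of those with no match. The consensus ran along the gene's own strand in 39 of 80 matches without gradient centrifugation and in 49 of 88 in the 50 µL library. The middle of the match lay a median of 51.5 bp from the summit without gradient centrifugation and 62.0 bp in the 50 µL library. It was within 50 bp in 50.0% (38.6 to 61.4) and 33.0% (23.3 to 43.8), where other far peaks with a match gave 47.0% (44.4 to 49.7) and 34.4% (32.2 to 36.7). The intervals of the libraries overlapped at gene ends and lay apart at other far peaks. The share for matches placed anywhere in the window was not computed, so these values do not show that matches centre on summits.

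The 6 CTCF sites printed first were in peaks found in both libraries, with the higher fold enrichment in the 50 µL library at 4 of them. These 6 were picked by their significance in the 50 µL library. Of all shared 50 µL gene-end peaks, 79.8% had the higher value without gradient centrifugation. Slc43a2, an amino acid transporter gene, had a fold enrichment of 8.64 without gradient centrifugation and 6.03 in the 50 µL library at the site printed above. Boc, a Hedgehog co-receptor gene, had 5.90 and 8.51. Polh, the gene of a translesion DNA polymerase, had 5.29 and 6.59 at a peak 3004 bp from the nearest TSS, just inside the rule. Snapc1, a subunit of the snRNA promoter complex, had 6.65 and 7.25, Rnf141 6.81 and 5.62, and Olfr1410, an olfactory receptor gene, 6.91 and 7.23.

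Sequences of the blood cell factors PU.1 and RUNX were also more frequent than in the territory, with intervals that held the share of other far peaks. PU.1, the ETS factor of myeloid and B cells, had its sequence in 5.22% (3.22 to 7.95) of gene-end peaks without gradient centrifugation and 3.60% (2.80 to 4.54) in the 50 µL library, against 6.81% and 4.11% of other far peaks and 1.15% of tiles. RUNX was present in 10.7% (7.79 to 14.2) and 7.14% (6.02 to 8.39), against 8.24% and 6.89% of other far peaks and 4.94% of tiles. The GC box was present in 8.36% (5.78 to 11.6) and 7.14% (6.02 to 8.39), against 6.23% and 4.76% of other far peaks and 2.57% of tiles. AP-1 (TGACTCA) was present in 2.70% (2.01 to 3.53) of gene-end peaks of the 50 µL library, below the 3.77% (3.60 to 3.93) of other far peaks, and in 3.20% of tiles. Without gradient centrifugation it had 3.66% (2.01 to 6.06) against 4.63%, a share inside the interval. The ETS sequence searched was CCGGAAGT. For the factors of the cyclic AMP response it was TGACGTCA, the CRE. For the octamer factors of B cells the letters were ATGCAAAT. Those of the erythroid GATA factors were AGATAAG. These 4 and the longer IRF and EBF1 sequences were present in 0.159% to 3.01% of gene-end peaks. Of them IRF had 0.522% (0.0633 to 1.87) without gradient centrifugation, below the 2.00% (1.75 to 2.28) of other far peaks but with intervals that overlapped, and 1.22% against 1.31% in the 50 µL library. The E-box was present in 19.3% without gradient centrifugation and 14.1% in the 50 µL library, against 13.4% of tiles. All were searched on both strands, and overlaps between different sequences were not resolved. The polyadenylation signal AATAAA was searched by strand. In the 50 µL library it was on the gene's strand in 13.2% and on the opposite strand in 15.0% of 3' UTR peaks. Downstream peaks there had 11.5% and 11.2%. Without gradient centrifugation the shares were 9.69% and 10.6% in 3' UTR peaks, and 6.41% and 9.62% in downstream peaks. A peak has no strand, and no share was computed for tiles or other far peaks. These shares therefore describe the letters only.

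**Figure D4:**
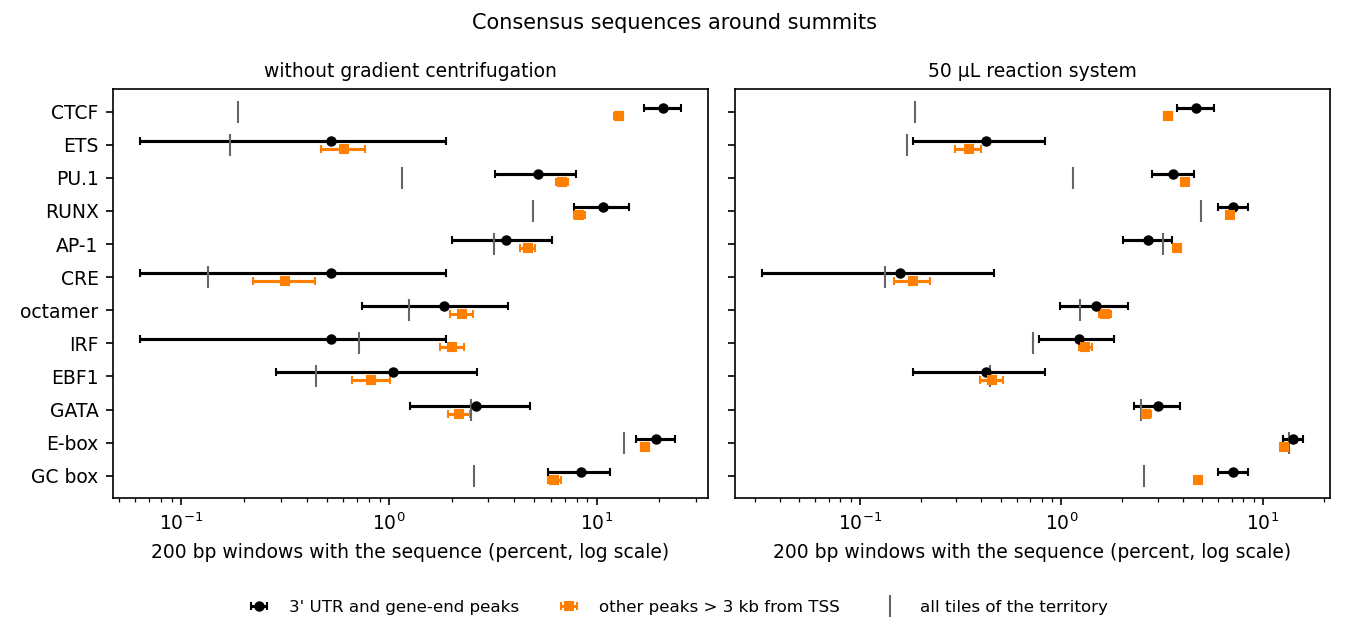
Share of 200 bp windows around summits that hold each consensus sequence (x axis, percent, log scale) without gradient centrifugation on the left and in the 50 µL reaction system on the right. Circles are gene-end peaks, squares other peaks over 3 kb from a TSS, bars exact 95% intervals, and ticks the tiles of the territory. CTCF stands farthest from its tick, at 20.9% and 4.65% against 0.187%.

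The strongest gene-end peaks without gradient centrifugation were at Arhgap25, a GTPase-activating protein gene of blood cells, Tmcc2, Spred1, an inhibitor of Ras signalling, Fam120a, Coa5, a cytochrome c oxidase assembly gene, Ctdsp1, a phosphatase gene, Cass4, Ebf1, Crybg3 and Slc43a2. All 10 were also found in the 50 µL library. The Coa5 peak, in the 3' UTR, had a fold enrichment of 10.98 without gradient centrifugation and 5.04 in the 50 µL library. The Spred1 3' UTR peak, which also held a CTCF match, had 10.7 and 4.89. The Arhgap25 peak began the list by significance, with a −log10 q of 35.5 and a fold enrichment of 9.24, against 6.40 in the 50 µL library, at chr6:87457357-87458130 (mm10), 997 bp after the gene end and so close to the rule's limit.

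The strongest in the 50 µL library were at Kcnd3, a potassium channel gene, Sgtb, a co-chaperone gene, Prlr, Gm10037, Ackr2, a scavenging chemokine receptor gene, Rnf2, Vangl2, Ttll4, a tubulin glutamylase gene, Ssbp2 and Fam120a. All but Ttll4 were found without gradient centrifugation. The Kcnd3 peak had a fold enrichment of 6.78 without gradient centrifugation and 8.01 in the 50 µL library, at a gene with no promoter peak in the 50 µL list. The Prlr peak had 3.95 and 8.50, and the Ttll4 peak had 7.38 in the 50 µL library. Fam120a, an RNA-binding protein gene, was in both groups of 10. Its downstream peak had 8.69 without gradient centrifugation and 5.51 in the 50 µL library, and 64.5% G+C with a CpG ratio of 0.916 at the 50 µL summit, so it was among the CpG-rich windows.

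The widest peaks were several times the median width. Without gradient centrifugation they were at 9930022D16Rik (899 bp), Arhgap25 (774 bp) and Tex52 (762 bp). The 50 µL library had its widest at Haus6, a subunit of the spindle protein augmin (1497 bp), Olfr750 (1289 bp) and Per1, a core gene of the circadian clock (1280 bp). The Per1 peak, 626 bp after the gene end, had a fold enrichment of 7.38 without gradient centrifugation and 4.03 in the 50 µL library.

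Most genes carried a single peak. Without gradient centrifugation 362 genes had 1, 9 had 2 and 1 had 3. In the 50 µL library 1454 had 1, 166 had 2, 20 had 3 and 9 had 4 or more. The highest numbers in the 50 µL library were at D10Wsu102e (7), St8sia4, a polysialyltransferase gene (7), Tmem72 (6), D1Ertd622e (5), and Rapgef6, a Rap exchange factor gene, Rassf2, Pde6h, a cone phosphodiesterase subunit gene, and Psd4 (4 each). The annotated 3' UTR bases of D10Wsu102e, 122586 bp over all its transcripts, and of D1Ertd622e, 39400 bp, were far above the median of 1320 bp, and none of their peaks was found without gradient centrifugation. Several of the peaks at these genes met the rule by an annotated 3' UTR and lay far from the gene end. In the 50 µL library the D10Wsu102e summits lay at -105170 to -26916 bp from it (negative inside the gene). Those of St8sia4 lay at -38975 to 248 bp. Tmem72, with 15991 bp, had 3 peaks without gradient centrifugation, at 4.75, 4.15 and 4.04, and the same positions had 3.60, 3.36 and 6.50 in the 50 µL library.

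Gene lists were compared by how many genes with territory carried a gene-end peak. Of 24 B cell genes, 1 carried a peak without gradient centrifugation and 12 (50.0%, 29.1 to 70.9) in the 50 µL library, where 10.7% of all genes did. The 50 µL genes were Pax5 and Ebf1, factors of B cell identity, Ikzf3, Bach2, Irf4, Irf8, Cd79b of the B cell receptor, Ms4a1, which encodes CD20, Cxcr5, Cd40, Tnfrsf13b and Blk. All 24 had a promoter peak in the 50 µL library, and 15.3% of all genes with a promoter peak carried a gene-end peak. The median territory of the list was 2594 bp, and 15.7% of genes with 2500 to 4000 bp carried a peak. Of the 14 peaks of these genes, 10 had a fold enrichment below the library's gene-end median of 3.17, and in the equally long 50 µL list 12.5% (2.66 to 32.4) of the B cell genes carried one, against 2.44% of all genes.

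The downstream peak of Ebf1, at chr11:45008132-45008515 (mm10), had a fold enrichment of 9.30 without gradient centrifugation and 3.74 in the 50 µL library. Without gradient centrifugation it lay 95994 bp from the nearest TSS, the farthest of the list peaks, and held the CTCF match printed above. The Pax5 peak in the 3' UTR had 5.31 in the 50 µL library, above its promoter at 2.90. Ikzf3 had 3.43 downstream, above its promoter at 2.17. Bach2 had 3.51 and its promoter 3.43. These 4 and Blk were higher at the 3' end than at the promoter, which is 5 of the 12 genes (41.7%, 15.2 to 72.3), against the 25.5% of all such genes in the library. Of the other 7, Irf4 carried 3 peaks, at 2.58, 2.47 and 2.297, below its promoter at 3.51.

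Of 22 T cell genes, 2 carried a peak without gradient centrifugation and 6 (27.3%, 10.7 to 50.2) in the 50 µL library. In the 50 µL library 21 of the 22 had a promoter peak. Of all genes with a promoter peak there, 15.3% carried a gene-end peak, and of genes with 2500 to 4000 bp of territory 15.7% did. Both shares lay inside the T cell interval. In the equally long 50 µL list 9.09% (1.12 to 29.2) of the T cell genes carried a peak, against 2.44% of all genes. Ctla4, an inhibitory receptor gene, had 4.14 without gradient centrifugation and 4.26 in the 50 µL library, at a peak 564 bp after the gene end without gradient centrifugation. Ctla4 had no promoter peak without gradient centrifugation, and in the 50 µL library its promoter had 2.35, below the 3' end. Bcl11b had 3.404 in its 3' UTR and Ets1 2.63 downstream, both in the 50 µL library alone. Of 21 myeloid genes none carried a peak in either library (0%, up to 16.1%), and 15 had a promoter peak in the 50 µL library. The myeloid list had a shorter median territory of 1410 bp. In the 50 µL library 5.86% of genes with 1000 to 1500 bp carried a peak, and 10.7% of all genes did. Both shares lay inside the myeloid interval, so a lower share at myeloid genes was not shown. With a 2 kb downstream window 4.76% of the myeloid genes carried a peak in that library.

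Of 21 immediate early and NF-kB genes, which respond quickly to stimuli, 1 carried a peak without gradient centrifugation and 8 (38.1%, 18.1 to 61.6) in the 50 µL library. The share of all genes in the 50 µL library was 10.7%. Rela, an NF-kB subunit gene, had a peak downstream at 6.99 without gradient centrifugation, whose 50 µL counterpart, at 5.16, did not meet the position rule. In the 50 µL library Btg1 had 2.27, Klf2 2.54, Klf6 2.98 and Nr4a3 3.48. None of the 8 genes kept a peak in the equally long 50 µL list (0%, up to 16.1%), and this interval held the 2.44% of all genes.

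The other lists lay between these. In the 50 µL library 6 of 19 survival and cell cycle genes (31.6%) carried a peak, 5 of 18 housekeeping genes (27.8%), 4 of 15 erythroid and megakaryocyte genes (26.7%), 5 of 23 RNA processing genes (21.7%), 4 of 21 endothelium and stroma genes (19.05%) and 1 of 19 genes of other tissues (5.26%). The 50 µL intervals of these lists all held the 15.3% of genes with a promoter peak that carried a gene-end peak. They also held the 10.7% of all genes, except that of the survival and cell cycle list (12.6 to 56.6). Without gradient centrifugation each had 1 or none. Akt1, a survival kinase, had 7.61 without gradient centrifugation and 6.14 in the 50 µL library. Rab7, a late endosome GTPase, had 7.44 and 5.33. Acta2, smooth muscle actin, had 5.32 and 3.90 in its 3' UTR. Mcl1 had 2.90 and Ccnd1, cyclin D1, 3.69, Runx1 3.29, Tfrc, the transferrin receptor, 3.06, Kdr, a VEGF receptor, 3.74, and Erg 4.08, all in the 50 µL library. Cstf1, a subunit of the cleavage stimulation factor that acts at polyadenylation sites, had 5.57 in its own 3' UTR. The single gene of other tissues was Scgb1a1, with 7.97 without gradient centrifugation and 4.596 in the 50 µL library at the CTCF site printed above, and it had no promoter peak in either library.

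**Figure D5:**
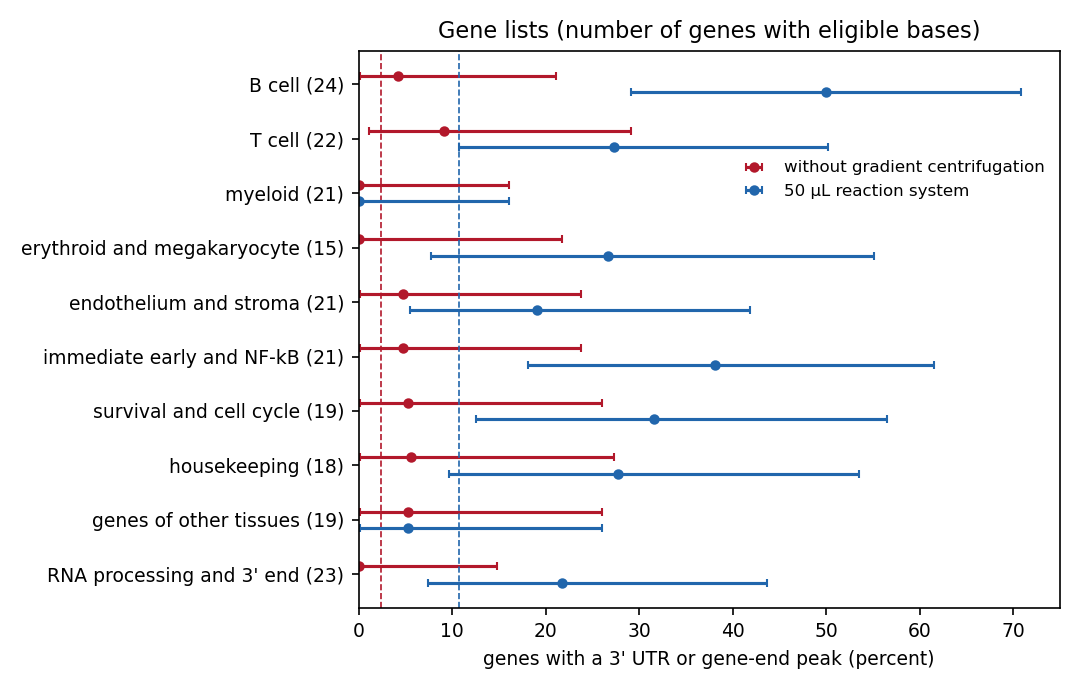
Genes with territory in each list that carry a gene-end peak (x axis, percent), with the number of genes in brackets, for the library without gradient centrifugation (red, upper) and the 50 µL reaction system (blue, lower). Bars are exact 95% intervals and dashed lines the share of all genes, 2.41% and 10.7%. The B cell list is at 50.0% and the myeloid list at 0% in the 50 µL library. The myeloid interval, up to 16.1%, holds the 10.7% of all genes.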

How the data were processed

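Each of 2 scFFPE-ATAC libraries was represented by a deposited peak list on mm10. The authors state alignment by BWA mem, duplicate removal by a script of their own, MACS2 peak calling for each library (q-value 0.01, neither model nor shift) and a blacklist filter. ATAC-seq reads are often moved to the Tn5 cut before calling, so summits here can sit some bases off it. The score in the deposited lists was not used. The fold enrichment deposited by the authors is the ratio of summit signal to local background, and −log10 p and −log10 q deposited by the authors are for the same summit. Reads and cells are not in the lists, so the depth is unknown.

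Peaks were placed on GENCODE vM21. The promoter window was 1 kb, and consensus sequences were searched in 200 bp around summits on RefSeq GRCm38. A gene took a peak when it owned the 3' UTR or the gene end upstream. Ties went to the nearest gene end. With 1 library per condition no test was made. Alternatives are given in the closing section. Placement and search were tested on simulated data.

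Named genes were those of the 10 most significant peaks per library, the 3 widest, the 8 with the most peaks, and those of 10 textbook gene lists with the most significant peaks. Further B cell genes and the list sites were named after their values were seen. The peaks of 1 named gene are not reported here. The position rule, lists and genes were chosen with earlier results of these data known. Scripts ran in Python 3.11.15 (pandas 2.3.3, numpy 2.4.6), with intervals by scipy 1.17.1 and plots by matplotlib 3.10.9.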

Additional observations from a re-analysis of the deposited data

Results flagged for a closer look

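On chromosome X, which the position rule left out, 17 peaks of the 50 µL library met the same rule. Counts above 3 were flagged, which is not a test. These 17 peaks came to 11.3 peaks per Mb of territory there, against 7.14 per Mb in other X bases over 3 kb from a TSS. No interval was computed for these densities, and the difference was not tested. Without gradient centrifugation 3 X peaks met the rule, too few to be flagged.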

How the results depend on the processing

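The density ratio stayed above 1 under every alternative run. With a limit of 5 kb from every TSS, the share of peaks was 1.11% without gradient centrifugation and 1.63% in the 50 µL library, and the 50 µL density ratio was 2.19. With a 2 kb downstream window the share was 2.29% and 2.99%, and the density ratio without gradient centrifugation 2.18. Counting any overlap of the peak in place of its summit gave shares of 1.74% and 2.43%. A fold enrichment of at least 4 gave a share of 1.87%, promoter peaks at 74.7% of genes and CTCF at 12.6% in the 50 µL library, and sharing of 59.7% without gradient centrifugation and 45.6% in the 50 µL library. The 50 µL list of equal length gave a share of 1.57%, promoter peaks at 59.8% of genes, which is below the 61.6% without gradient centrifugation where the full list was above it, CTCF at 11.1%, and sharing of 60.1% without gradient centrifugation and 58.8% in the 50 µL library. Overlap of 50% in both directions gave sharing of 63.4% and 12.7%. A promoter window of 500 bp gave 81.9% in the 50 µL library. Windows of 100 bp held the whole CTCF consensus in 8.36% and 1.11%. Stricter peak or list limits leave fewer peaks by construction, and other causes were not tested. A −log10 q above 5 and basic transcripts left every one of these values within its main interval. Of 110 list values, 91 stayed within the interval of the full lists and 19 moved, most of them 50 µL shares under the stricter limits. The lists had 15 to 24 genes with territory and wide intervals, so staying inside does not show a stable value. The 50 µL housekeeping share went from 27.8% to 11.1% with the 5 kb limit and still stayed inside. The immediate early and the erythroid lists had 0% in the 50 µL library both at a fold enrichment of at least 4 and in the list of equal length. No paired analysis was possible because there was 1 library per condition, and for the same reason no library could be left out. Depth was unknown, so peaks absent from the shorter list were not detectable there rather than shown to be absent.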
